A study of Apis mellifera with 9 samples.

Results

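The nuclear-encoded subunits of the respiratory chain were followed in the ovary of worker honey bees (Apis mellifera). Members were the protein-coding genes outside the mitochondrial linkage whose product names, in the annotation deposited with the expression table, name NADH dehydrogenase [ubiquinone], succinate dehydrogenase, cytochrome b-c1 complex, cytochrome c oxidase subunit, or ATP synthase together with subunit. These strings matched 69 genes. Of these, 4 were set apart because their names are not those of a subunit of these complexes: the complex I assembly factors LOC100576544, LOC551492 and LOC102656215, and Vha16, a subunit of the vacuolar proton pump. The remaining 65 of 10260 nuclear protein-coding genes comprised 26 genes of complex I, 7 of complex II, 9 of complex III, 9 of complex IV and 14 of complex V.

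The study listed the coding and non-coding RNAs found in worker ovaries and held 1 biological group with no treatment. Workers of 5 colonies headed by sister queens emerged in an incubator at 34 °C and 80% humidity, went back to their colonies with a paint mark, and were taken 4 days later. A pool held 40 pairs of ovaries, all from bees of 1 colony, and there were 3 such pools, so a value is an average over many animals and differences between single bees are not seen. Each pool number carries 3 kinds of library, of which the RNA-seq library, made from RNA depleted of rRNA with a strand-specific kit, gives the levels below, and the RNase R digested circRNA library gives circular junctions. The levels are the authors' FPKM, fragments per kilobase of exon and per library size, which allows levels of different genes to be set side by side. Medians are given as log2(FPKM + 1), and a value with ± is the mean and SD over the 3 pools (n = 3).

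The respiratory chain passes electrons from NADH and succinate to oxygen and uses the energy to pump protons across the inner mitochondrial membrane. Complex I takes electrons from NADH, complex II from succinate, complex III hands them to cytochrome c, and complex IV passes them to oxygen. Complex V, the ATP synthase, lets the protons flow back and makes ATP. Most subunits are encoded in the nucleus and a few in the mitochondrial genome, and in animal ovaries the growing oocyte accumulates a large stock of mitochondria. The 11 features on the mitochondrial linkage carry no product name in the table and were not analysed here.

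Depth and tissue markers were looked at first. The fragment totals recovered from the FPKM were 31930244, 27684048 and 26602582 in pools 1 to 3, and the members held 229175, 112202 and 137326 of these fragments, or 0.718%, 0.405% and 0.516%. All 7 matched germ-line marker genes, among them vas and aub, had an FPKM of 1 or more in every pool, and their summed level was lowest in pool 1. That cut was also passed by 80.1% of all nuclear protein-coding genes and by all 9 fat body genes, so it does not identify the tissue. Marker genes of other tissues were present too, and their values stand beside the differences between pools. In pooled tissue, fewer cells of a type and less RNA per cell cannot be told apart.

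As a set, the subunit genes stood well above the typical gene of the ovary. Their median log2 level was 6.55, 5.38 and 6.13 in pools 1 to 3, against 3.99, 3.89 and 4.02 for all nuclear protein-coding genes. The members were thus above the other genes in 3 of 3 pools, by 2.06 ± 0.54 on the log2 scale (n = 3), and this difference was larger than its spread between pools. With 3 pools an exact two-sided sign-flip test cannot go below p = 0.25, so no test was made.

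A mean of 100 FPKM or more was reached by 22 of the 65 members (33.8%), where the share over all nuclear protein-coding genes was 6.43%. An FPKM of 1 or more in every pool was reached by 60 of the 65, against 80.1% of all nuclear protein-coding genes. The members' share of the summed FPKM of nuclear protein-coding genes was 1.88%, 1.10% and 1.44% in pools 1 to 3. The distribution was wide: 10 members had a mean below 5 FPKM, and 4 of these were below 1 FPKM. The highest member was ATP5G2, subunit c of the ATP synthase ring, above 98.8% of nuclear protein-coding genes. The lowest was LOC725843, a copy of COX5B, at 0.118 ± 0.205 FPKM.

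**Figure D1:**
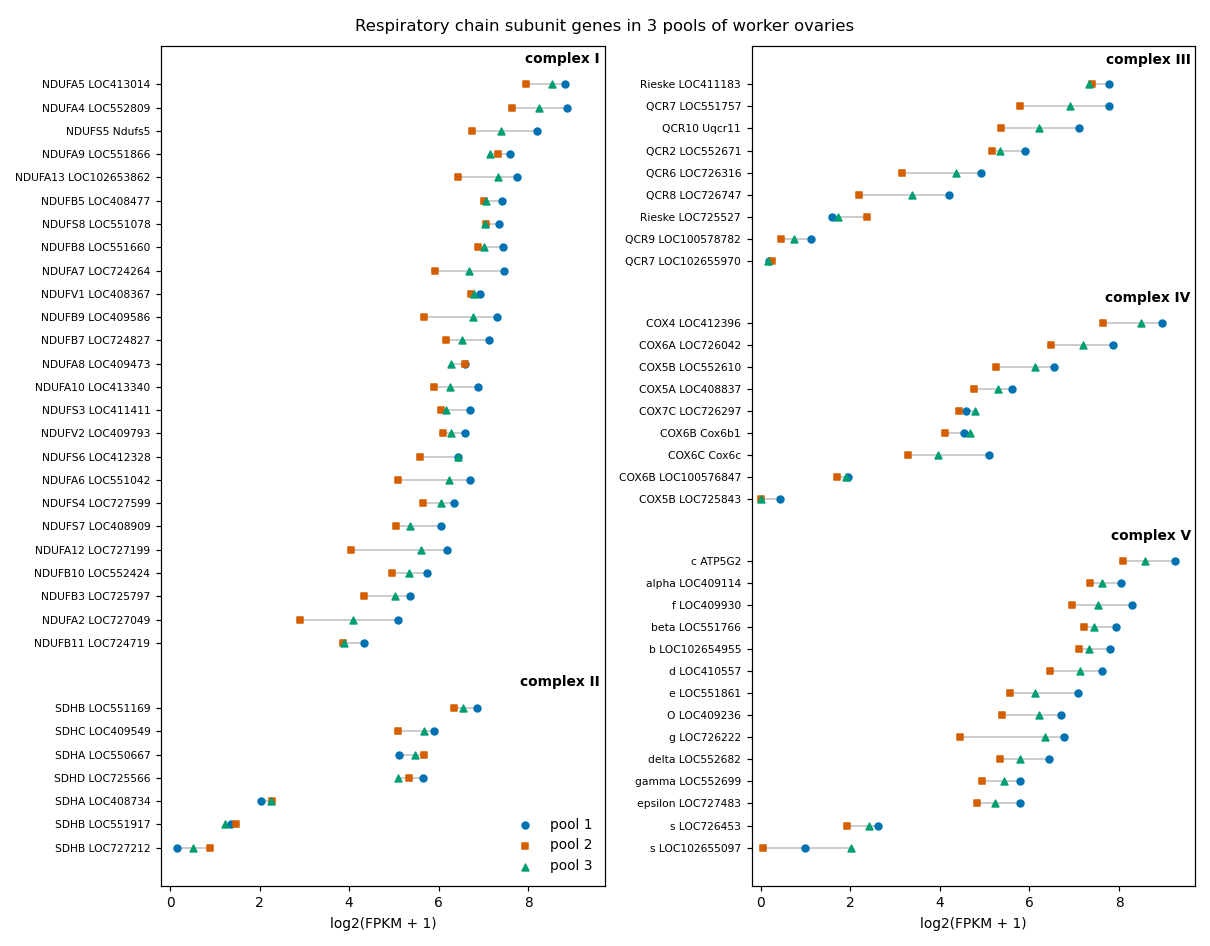
Level of 64 of the 65 members, as log2(FPKM + 1) on the horizontal axis, with 1 symbol per pool, grouped by complex and sorted by mean level, each row labelled with the subunit and the gene. The circle of pool 1 lies to the right and the square of pool 2 to the left in most rows on the deposited scale, and the lower copies of subunits sit near 0 to 2.

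Complex I, the entry point for NADH, was measured throughout: all 26 members had an FPKM of 1 or more in every pool, and the lowest mean was 15.4 FPKM. Its median log2 level was 6.79, 6.07 and 6.35 in pools 1 to 3, or 6.40 ± 0.36. A mean of 100 FPKM or more was reached by 12 of the 26.

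The 6 core subunits of complex I named by the rule belong to the part that takes electrons from NADH and passes them on. NDUFS8 (LOC551078), an iron-sulfur subunit, had 162, 133 and 129.6 FPKM in pools 1 to 3. NDUFV1 (LOC408367), which holds the flavin that accepts electrons from NADH, had 119.6, 105 and 109.7 FPKM. The 3 pools of NDUFV1 lay closer together than those of any other member with a mean of 5 FPKM or more, the highest being 1.14 times the lowest. NDUFS3 (LOC411411) had 103, 65.5 and 70.5 FPKM, and NDUFV2 (LOC409793), an iron-sulfur partner of NDUFV1, had 94.5, 67.7 and 76.7 FPKM. NDUFS7 (LOC408909), another iron-sulfur subunit, was the lowest of the core at 65.2, 32.2 and 40.0 FPKM. Core subunits thus spanned mean levels of 45.8 to 141 FPKM, a narrower band than the accessory subunits.

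The 20 accessory subunits of complex I, which surround the core and do not carry the electron-transfer centres, ran between means of 15.4 and 357 FPKM. NDUFA5 (LOC413014), on linkage group 5 from 13844318 to 13845218 on the minus strand, was the highest with 454, 247 and 369.5 FPKM in pools 1 to 3. NDUFA4 (LOC552809), which is named as a complex I subunit in the table although in mammals it is known to associate with complex IV, followed with 463, 198 and 299.7 FPKM. Ndufs5 came next with 294, 106 and 166 FPKM. For all 3 genes pool 1 was the highest and pool 2 the lowest. The lowest of complex I were NDUFB3 (LOC725797) with 40.1, 19.1 and 31.3 FPKM, NDUFA2 (LOC727049) with 32.9, 6.47 and 15.9 FPKM, and NDUFB11 (LOC724719) with 19.0, 13.5 and 13.8 FPKM. NDUFB3 overlaps LOC409444 on the same strand, so its reads are uncertain to that extent. The core and accessory medians did not differ beyond their spread: the core minus the accessory subunits was -0.14 ± 0.30 on the log2 scale, with a negative sign in pools 1 and 3 and a positive sign in pool 2.

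Complex II, which oxidises succinate in both the citric acid cycle and the chain, had a median of 5.11, 5.09 and 5.10 in pools 1 to 3. These medians fall on a different gene in each pool and their closeness depends on the scaling: with values rescaled to a fixed sum per library the SD was 0.46, against 0.01 as deposited. Its 7 genes comprised 4 that carry the level and 3 low copies of SDHA and SDHB. SDHB (LOC551169), the iron-sulfur subunit, was the highest with 114, 80.1 and 92.1 FPKM. SDHC (LOC409549) and SDHD (LOC725566) anchor the enzyme in the membrane, and SDHC had 58.5, 33.0 and 49.6 FPKM. SDHD had 48.8, 39.2 and 33.2 FPKM. SDHA (LOC550667), the flavoprotein that binds succinate, had 33.5, 49.9 and 43.3 FPKM, and so was lowest in pool 1, where most members were highest. SDHC and this SDHA gene each overlap a gene on the opposite strand, and the labels do not say whether fragments were counted by strand.

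Complex III had the lowest median of the 5 complexes when every gene was counted, 4.91, 3.15 and 4.37 in pools 1 to 3. The Rieske iron-sulfur protein (LOC411183), a catalytic subunit, was its highest member with 218, 167 and 160.0 FPKM. QCR7 (LOC551757), a small accessory subunit, had 219, 54.0 and 118 FPKM. QCR10, listed as Uqcr11, had 136, 40.1 and 73.2 FPKM. In pool 1 the Rieske gene and QCR7 had nearly the same level, and in pool 2 QCR7 was far below it. QCR2 (LOC552671), a core protein of the complex, had 59.1, 34.7 and 39.9 FPKM, QCR6 (LOC726316), the hinge protein, had 29.0, 7.89 and 19.7 FPKM, and QCR8 (LOC726747) had 17.3, 3.58 and 9.38 FPKM. QCR9 (LOC100578782) was near the limit of 1 FPKM, with 1.19, 0.362 and 0.678 FPKM. The QCR9 values rest on 19, 5 and 9 fragments.

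The nuclear part of complex IV consists of accessory subunits, since the catalytic subunits are encoded in the mitochondrial genome. COX4 (LOC412396), on unplaced sequence, was the highest with 499, 198 and 359 FPKM in pools 1 to 3. COX6A (LOC726042) had 234, 87.8 and 146 FPKM, and COX5B (LOC552610) had 92.9, 37.0 and 69.2 FPKM. All 3 were highest in pool 1 and lowest in pool 2. COX5A (LOC408837) had 48.1, 26.2 and 38.1 FPKM, COX7C (LOC726297) had 23.0, 20.4 and 26.4 FPKM, and Cox6b1 had 22.3, 16.4 and 24.5 FPKM. COX7C and Cox6b1 departed from the usual order in that pool 3 was their highest. Cox6c had 33.0, 8.83 and 14.7 FPKM. Cox6b1 and Cox6c each overlap another gene on the same strand.

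Complex V, the ATP synthase, held the highest member of the whole set and stood with complex I at the top, with a median log2 level of 6.93, 5.47 and 6.28 in pools 1 to 3. ATP5G2, on linkage group 8 from 2349727 to 2352539 on the plus strand, encodes the rotating ring of the membrane part and had 608, 271 and 381 FPKM. Subunit f (LOC409930) had 312, 123 and 183 FPKM, and subunits e (LOC551861) and g (LOC726222), known from mammals and yeast for their place where synthase dimers meet, had 135, 46.2 and 68.7 FPKM and 108, 20.9 and 80.2 FPKM. All 4 membrane subunits were highest in pool 1 and lowest in pool 2. In the catalytic head, alpha (LOC409114) had 263, 162 and 196 FPKM and beta (LOC551766), which carries the catalytic sites, had 243, 147 and 172 FPKM. The central shaft subunits gamma (LOC552699), delta (LOC552682) and epsilon (LOC727483) were lower, with mean levels of 42.1 ± 12.1, 59.9 ± 23.4 and 39.6 ± 13.9 FPKM. The peripheral stalk subunits b (LOC102654955), d (LOC410557) and O (LOC409236), which hold the head still, averaged 173 ± 44.7, 140.3 ± 54.3 and 72.7 ± 31.5 FPKM. Within complex V the median of the head and shaft minus that of the membrane subunits was -1.10 ± 0.18 on the log2 scale, and the stalk minus the head and shaft was 1.21 ± 0.12, each with the same sign in 3 of 3 pools. LOC726453 and LOC102655097, both named subunit s, were the lowest of the complex with means of 4.12 and 1.37 FPKM.

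Set against each other within each pool, complexes I and V were above complexes II, III and IV in every pool. Complex V minus complex IV was 1.47 ± 0.40 on the log2 scale, and complex I minus complex IV was 1.64 ± 0.06. Complex V minus complex II was 1.13 ± 0.72, and complex I minus complex II was 1.31 ± 0.35. These differences exceeded their spread between pools. With the highest copy of each subunit alone, those against complex II were smaller, at 0.72 ± 0.63 for V and 0.79 ± 0.22 for I. In pool 2 the medians of V and II were then 5.56 and 5.50. Complex V minus complex III was 2.08 ± 0.21 and complex I minus complex III was 2.26 ± 0.57; with the highest copy of each subunit alone they were 0.86 and 0.93, and with genes of a mean of 1 FPKM or more 0.76 and 0.93. Complex V and complex I did not differ beyond the spread, at -0.18 ± 0.38 with a positive sign in pool 1 and a negative one in the other pools. The order of the lower 3 was not fixed by these data: complex II minus complex IV was 0.34 ± 0.32, complex II minus complex III 0.95 ± 0.89 and complex IV minus complex III 0.62 ± 0.57. With the highest copy of each subunit alone, an alternative chosen after seeing the data, complex IV minus complex III was -0.25, which leaves out 2 low copies of complex III and 2 of complex IV.

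**Figure D2:**
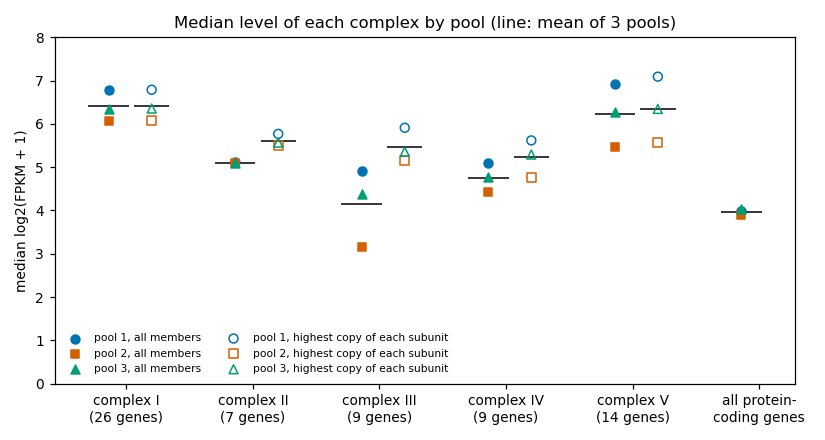
Median log2(FPKM + 1) of each complex and of all nuclear protein-coding genes, with 1 symbol per pool and a line at the mean of the 3 pools. Filled symbols count every member and open symbols count the highest copy of each subunit name alone. Complexes I and V lie above the others in both forms, and leaving out lower copies raises complex III to 5.47 ± 0.39.

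On the deposited scale the levels of many members differed between pools. Of the 55 members with a mean of 5 FPKM or more, 27 had a highest pool at least 2 times the lowest (49.1%), against 10.2% of all 7071 nuclear protein-coding genes above that level. In all 27 members pool 1 was the highest and pool 2 the lowest; among all these genes, 5.43% passed the fold with that order. The order alone was found in 46 of the 55 members, against 29.3% of all genes. Pool 1 was the highest in 51 of the 55, against 38.9%, and pool 2 the lowest in 48, against 44.1%. The median ratio of highest to lowest pool was 1.96 in members and 1.30 over all genes. With libraries scaled to the same median, 24 of the 55 passed the fold, against 9.87% of all genes. No p-value goes with these counts, since each pool is 1 library. Nearest to the fold of 2 were NDUFA10 (LOC413340), just past it with 116, 58.0 and 74.9 FPKM in pools 1 to 3, and NDUFB7 (LOC724827), short of it at 1.96.

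Since the fold lay between pools 1 and 2 in all 27, the count was bound to hold without pool 3. Without pool 1 or pool 2 it could only hold or fall. Without pool 1 the count was 8 of 55 members (14.5%), against 3.01% of all genes. Without pool 2 it was 2 of 55 (3.64%), against 4.02%, and without pool 3 it was 27 of 55, against 8.86%. Among members with a mean of 1 FPKM or more, the median log2 ratio of a pool to the mean of the others was 0.59 in pool 1, -0.70 in pool 2 and -0.14 in pool 3. The same median over all nuclear protein-coding genes lay near 0, at -0.00, -0.06 and 0.05. In pool 1 the ratio was above 0 in 56 of 61 members, against 49.7% of all these genes, and in pool 2 it was above 0 in 5 of 61, against 41.8%.

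The sign of these shifts depends on how the libraries are scaled. With values rescaled to the same sum per library, an alternative added after seeing the data for these results, the median shift of members was -0.077 in pool 1 and 0.058 in pool 2, against -0.64 and 0.62 over all nuclear protein-coding genes. Then 6 of 55 members passed the fold of 2, against 46.8% of all genes. The summed FPKM of the table was 1374667, 702046 and 1040997 in pools 1 to 3, of which 1 miRNA gene held 921550, 308479 and 621124, so this scaling follows that gene. On both scalings the median shift of the members was above that of all genes in pool 1 and below it in pool 2, and the differences between pools are to be read relative to the other genes. The pool values of single genes elsewhere in the text are on the deposited scale.

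The complexes shared the order of the pools to different degrees. The fold of 2 was passed by 8 of 12 members of complex V, 4 of 7 of complex IV, 4 of 6 of complex III and 11 of 26 of complex I, and by 0 of 4 of complex II. Over all genes of that level the share was 10.2%. The 4 genes of complex II have exonic lengths of 869, 870, 878 and 3181 bases. None is thus under 600 bases, where 42.2% of all genes passed. The median shift of pool 2 was taken over members with a mean of 1 FPKM or more. It was -1.36 in complex III (7 genes), -0.90 in complex IV (8), -0.83 in complex V (14) and -0.69 in complex I (26). In complex II it was 0.03 over 6 genes. These include the low copies LOC408734 and LOC551917, with means of 3.54 and 1.55 FPKM, which the count past the fold leaves out. Whether the complexes differ from each other in this was not tested.

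Among the 55 members with a mean of 5 FPKM or more, the widest ratios belonged to subunits with short transcripts, of 545 bases or less. Subunit g of the ATP synthase had the widest at 5.18, followed by NDUFA2 at 5.08, QCR8 at 4.83, NDUFA12 (LOC727199) at 4.68 and QCR7 at 4.05. NDUFA12 had 71.7, 15.3 and 47.6 FPKM in pools 1 to 3, and its pathway annotation in the table names the assembly factor NDUFAF2 instead. The other members past a ratio of 3 were Cox6c, QCR6, QCR10, NDUFB9 (LOC409586) with 155, 49.7 and 108 FPKM, and NDUFA6 (LOC551042) with 102, 33.0 and 74.3 FPKM. Below a ratio of 3, complex I added NDUFA7 (LOC724264) at 2.98, Ndufs5 at 2.78, NDUFA13 (LOC102653862) at 2.48, NDUFA4 at 2.34 and NDUFB3 at 2.10, with NDUFS7 and NDUFA10 just past 2. In complex IV these were COX6A at 2.66, COX4 at 2.52 and COX5B at 2.51. In complex V they were subunits e at 2.93, O at 2.55, f at 2.53, d at 2.26, c at 2.24 and delta at 2.15, with epsilon just past 2.

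The count was also taken by class of subunit, with no test between classes, and stands beside the 10.2% over all genes. In complex I, 1 of 6 core subunits and 10 of 20 accessory subunits passed the fold, with median ratios of 1.33 and 1.98. In complex V, 2 of 5 head and shaft subunits, 2 of 3 stalk subunits and 4 of 4 membrane subunits passed it. The 2 head subunits that form the bulk of the catalytic part, alpha and beta, had ratios of 1.62 and 1.66. The exonic length ran alongside these classes: its median was 1155 bases in the core and 652 bases in the accessory subunits of complex I, and 1091 bases in the head and shaft and 544 bases in the membrane part of complex V.

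Length moved with the difference between pools across the whole table. Exonic lengths were recovered from the FPKM, and the members were short, with a median of 807 bases against 1957 over nuclear protein-coding genes. Across 7069 genes of 5 FPKM or more, length and the log2 difference of pool 1 minus pool 2 had a Spearman rho of -0.47, and across the 55 members rho was -0.65. These are descriptions over genes that share the same libraries. Under 600 bases, 15 of 19 members passed the fold of 2, against 42.2% of all genes of that length. From 600 to under 1000 bases it was 10 of 21, against 19.2%, and at 1000 bases or more 2 of 15, against 6.91%. On the deposited scale, short genes as a whole thus differed between these pools more often than long ones. With values rescaled to a fixed sum, this count was not taken by length.

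In each class of length the median of the members lay above that of all genes. On the deposited scale, the median log2 difference of pool 1 minus pool 2 was 1.56 in members and 0.69 in all genes under 600 bases. It was 0.85 in members and 0.38 in all genes from 600 to under 1000 bases. At 1000 bases or more it was 0.47 in members and -0.02 in all genes, with 14 of 15 members higher in pool 1 than in pool 2, against 48.2% of all genes of that length. The exception at that length was SDHA (LOC550667), which has the longest exons of the 55. Lengths were not matched within a class. At 1000 bases or more, all members but this gene had 2047 bases or less, while the class has no upper bound. The part of length in the difference between pools was not tested.

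**Figure D3:**
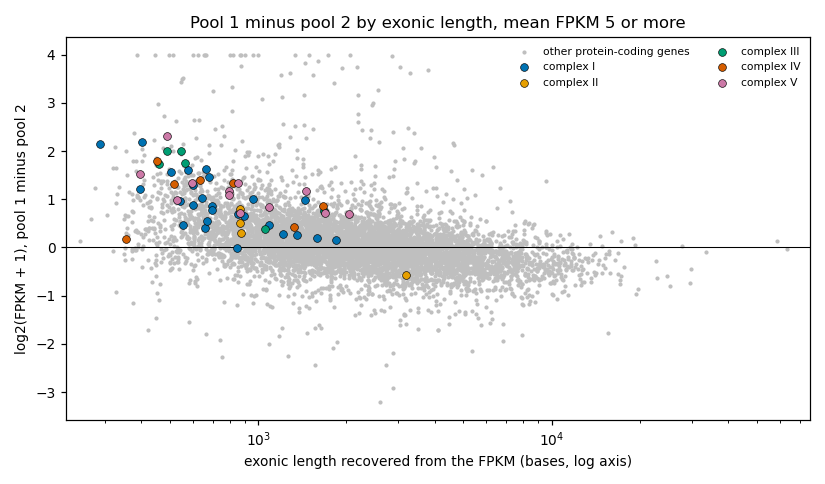
Difference of log2(FPKM + 1), pool 1 minus pool 2, against the exonic length in bases on a log axis, for genes with a mean of 5 FPKM or more. Coloured points are the 55 members by complex and grey points all other nuclear protein-coding genes, with values past 4 on either side drawn at the edge; members lie on the upper side of the grey cloud, and both fall with length.

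Markers of other tissues moved between the same pools. The summed FPKM of 37 muscle genes was 2470, 1456 and 1308 in pools 1 to 3; 28 of the 37 had an FPKM of 1 or more in every pool and 4 were at 0 in at least 1 pool. The 15 gut genes summed to 234, 63.6 and 74.4 FPKM, with 2 genes at 0 in a pool and chymotrypsin-1 (LOC410894) at 51.8, 0.0401 and 0.418 FPKM. The 34 genes of trachea and cuticle summed to 1841, 785 and 672 FPKM, with 5 at 0 in a pool. The 19 neuron genes summed to 491, 307 and 245 FPKM, with 1 at 0 in a pool. All 4 sums were highest in pool 1, but sums rest on few genes: nAChRb2 alone had 163, 12.4 and 11.5 FPKM. The list medians did not all follow the sums. On the log2 scale they were 3.87, 4.18 and 3.88 for muscle, with pools 1 and 3 nearly equal. For neuron they were 2.55, 3.10 and 2.89, lowest in pool 1. They were 2.32, 0.22 and 0.51 for gut and 1.80, 0.63 and 1.04 for trachea and cuticle. These 2 were highest in pool 1 and lowest in pool 2 as in most members. Among genes with a mean of 5 FPKM or more, pool 1 was the highest in 14 of 24 muscle and 4 of 10 neuron genes. It was so in 6 of 8 gut genes and 7 of 11 of trachea and cuticle, against 38.9% of all genes. The 7 germ-line genes summed to 256, 456 and 469 FPKM, with none at 0, and LOC411907 alone held 110, 280 and 275 of these. Their median was also lowest in pool 1, at 4.49, 5.03 and 5.17. The 9 fat body genes summed to 1668, 1933 and 1866 FPKM, with none at 0. Their median ran the other way, at 6.15, 6.04 and 5.87, highest in pool 1. Among genes with a mean of 5 FPKM or more, pool 1 was the highest in 0 of 7 germ-line and 2 of 7 fat body genes. The part of these tissues in the difference between pools was not tested, and many of these marker genes are not exclusive to 1 tissue.

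Several subunits were annotated more than once, and 1 copy carried nearly all of the signal. There were 7 subunit names with more than 1 member, 15 members in all, of which 8 were lower copies. Higher and lower were set by the mean FPKM over these same pools. Fragments of near-identical copies can be assigned to either, so the ratios below are uncertain to that degree. For SDHA, LOC550667 had 11.9 ± 1.12 times the FPKM of LOC408734, which had 3.08, 3.81 and 3.73 FPKM. These copies are neighbours on linkage group 3, at 11225955 to 11233106 and 11234203 to 11242262 on the minus strand in the coordinates of the deposited table, and both were lowest in pool 1. For SDHB, LOC551169 had 62.4 ± 14.6 times the FPKM of LOC551917, which had 1.57, 1.75 and 1.33 FPKM. The third copy, LOC727212, lies on unplaced sequence and had 0.116, 0.850 and 0.419 FPKM, with 3 fragments in pool 1.

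The same held in complexes III to V. The Rieske gene LOC411183 had 72.8 ± 34.7 times the FPKM of LOC725527, which had 1.999, 4.17 and 2.31 FPKM and was highest in pool 2. LOC102655970, the lower copy of QCR7, had 0.136, 0.195 and 0.119 FPKM over a recovered exonic length of 6656 bases, against 491 bases for LOC551757. For COX6B, Cox6b1 had 7.96 ± 0.82 times the FPKM of LOC100576847, which had 2.86, 2.27 and 2.77 FPKM, and this ratio and that of SDHA were the steadiest of the pairs. LOC725843, the lower copy of COX5B, had 0.35 FPKM in pool 1, from 6 fragments, and was listed at 0 in pools 2 and 3, where 3 fragments would have stood for 0.204 and 0.213 FPKM. The pair named subunit s was the exception: LOC726453 had 5.19, 2.79 and 4.38 FPKM and LOC102655097 had 0.985, 0.0379 and 3.07 FPKM, so that the lower copy came close to the other in pool 3. The lowest value of LOC102655097 rests on 1 fragment.

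**Figure D4:**
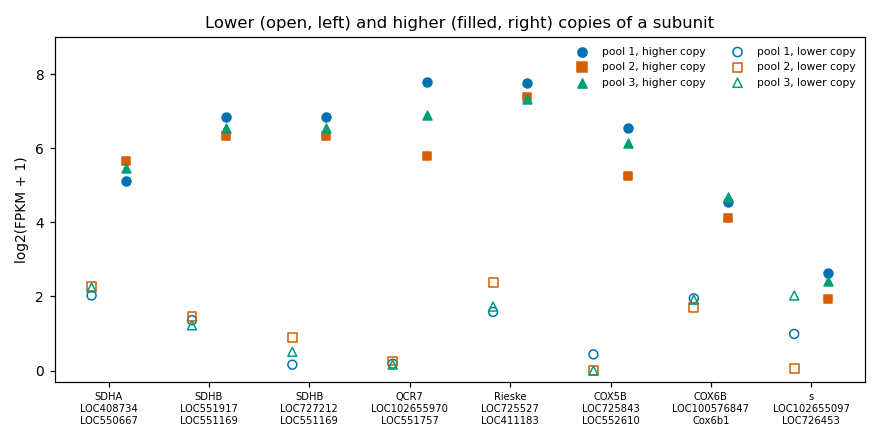
Level of the lower copy (open symbols, left) and the higher copy (filled symbols, right) of each subunit with more than 1 gene, as log2(FPKM + 1), with 1 symbol per pool; the genes are named under each pair, and the SDHB gene LOC551169 appears beside both of its copies. Copies are called higher or lower by their mean FPKM over these same pools, so their order in the mean is given by that choice. The higher copies lie above the lower ones in every pool, by a ratio of 11.9 ± 1.12 for SDHA, and the pair named s lies closest in pool 3.

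The members were scattered over the genome. They lay on 15 of 16 linkage groups, with 7 on unplaced sequence. Apart from the SDHA pair, neighbouring members within 50 kilobases were NDUFA9 (LOC551866) and NDUFA8 (LOC409473) on linkage group 8, 13898 bases apart, ATP5G2 and COX7C on the same group, 44262 bases apart, and on linkage group 14 the pairs of beta and SDHC, 32373 bases apart, and d and QCR2, 8950 bases apart. NDUFA9 had 192, 159.7 and 141 FPKM in pools 1 to 3, and NDUFA8 had 94.5, 95.4 and 75.9 FPKM. NDUFA8 was the only member of complex I with its highest value outside pool 1. Another listed gene overlapped 10 of the 65 members, 6 on the opposite strand and 4 on the same strand.

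Circular RNAs from these genes were rare. A circRNA is made when a splice donor joins an acceptor upstream of it, and the circRNA table gives SRPBM, the authors' scaled signal of back-spliced reads. It named 2 of the 65 members as a source gene (3.08%), against 20.8% of all nuclear protein-coding genes. The members are compact genes, with a median span of 1254 bases against 3920.5 bases, and all 65 span 10000 bases or less. Among the 7790 genes that span 10000 bases or less, 6.70% were source genes, so the share in members is read against this figure. A span over 5000 bases was found in 3 of the 65, against 41.7% of all nuclear protein-coding genes. The ATP synthase alpha gene (LOC409114) had 1 circle on linkage group 1, from 10758602 to 10759857 on the minus strand, at 0, 0 and 94.0 SRPBM in pools 1 to 3. The low SDHA copy (LOC408734) had 1 circle on linkage group 3, from 11238032 to 11239131 on the minus strand, at 0, 0 and 178 SRPBM. Neither was seen in more than 1 pool, and the depth behind these circRNA values is unknown.

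Other genes of the pathway were listed for comparison by product name. The list of subunits named in other ways held 7 genes. Some of these are named as subunits of the mitochondrial-processing peptidase, and whether they belong to the complexes was not checked. The list included Ndufs1, the 75 kDa core subunit of complex I, with 98.3, 80.6 and 73.9 FPKM in pools 1 to 3. Cytochrome c1 (LOC413605), the haem protein of complex III, had 45.0, 25.9 and 26.6 FPKM. The coupling factor 6 of the ATP synthase stalk (LOC726120) had 132, 37.5 and 82.1 FPKM and was the 1 of 5 with a mean of 5 FPKM or more to pass the fold of 2. Ndufs1, cytochrome c1 and coupling factor 6 showed the same order as most members, apart from the lower value of Ndufs1 in pool 3 than in pool 2. The highest of the 7 was a mitochondrial-processing peptidase subunit beta (LOC410022) at 92.2 ± 18.7 FPKM, and the lowest was a second gene of that name (LOC100579052) at 3.08 ± 0.55 FPKM.

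Genes that build, feed and link the complexes were listed in the same way. The 19 assembly factors had a median log2 level of 4.44 ± 0.23, between Pet117 at 0.166 ± 0.288 FPKM and COX19 (LOC102655540) at 42.5 ± 3.19 FPKM, and 4 of 14 passed the fold of 2. The 18 genes of the citric acid cycle had a median of 4.86 ± 0.04, up to aconitate hydratase (LOC408446) at 126 ± 25.9 FPKM and down to a malate dehydrogenase gene (LOC724677) at 0.0637 ± 0.0060 FPKM, and 1 of 10 passed. Among 5 carriers and partners, Ant, which exchanges ADP for ATP, had 408, 396 and 345 FPKM, and CytC, which carries electrons between complexes III and IV, had 88.7, 39.9 and 55.2 FPKM. CytC was the 1 of 3 carriers to pass the fold. The lowest was the ATPase inhibitor mai-2 (LOC727417) at 0.154 ± 0.091 FPKM. The 5 genes of mitochondrial DNA upkeep and transcription had a median of 3.11 ± 0.19, between a dimethyladenosine transferase 2 gene (LOC726530) at 0.232 ± 0.207 FPKM and the polymerase subunit gamma-2 (LOC100576960) at 32.2 ± 2.96 FPKM, and 0 of 3 passed. Over all nuclear protein-coding genes with a mean of 5 FPKM or more, 10.2% passed. Whether any of these lists differs from the subunits in this count was not tested.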

How the data were processed

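RNA-seq levels were the authors' FPKM per gene, deposited for 3 pools, and circRNA levels were the authors' SRPBM signal, deposited per junction. The tools named in the submitters' processing notes, with no step beside them, are TopHat2 2.0.9, HTSeq 0.6.1, Bowtie2 2.0.6 and Bowtie; the genome build and the circRNA caller are not given in the sources used here. The members and lists were chosen with earlier results of these data known.

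Members were found by product name (64 through the protein description alone, and ATP5G2, subunit c, through both descriptions together). Levels were log2(FPKM + 1). Fragment totals and exonic lengths were recovered as the shortest length of 350 bases or more (200 where none was possible) at which the FPKM of all 3 pools gave whole fragments within a tolerance of 1e-05; this worked for 65 of 65 members and 10258 protein-coding genes, and was tested on simulated data. Floors of 3 fragments cover counting error only. A count of members past a fold of 2 used genes with a mean of 5 FPKM or more. Genes were named by level (the 3 highest and 3 lowest of each complex), shared subunit name, a mean below 1 FPKM, the fold of 2, a circRNA, or a catalytic or core role. Gene symbols of 63 members were also found in the RefSeq annotation Amel_HAv3.1, from which no position was taken. The miRNA tables and promoter sequences were not used here. The values of 1 member are not reported here, though it is counted in the summaries. Alternatives covered the pseudocount (0.1), filters, rescaling, the matching of members, overlapping genes, and leaving out each pool; 3 more, without lower copies, at 1000 bases or more, and the rescaling for differences between pools, were chosen after seeing the data. Python 3.11.15 with pandas 2.3.3, numpy 2.4.6 and matplotlib 3.10.9 was used.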

Additional observations from a re-analysis of the deposited data

How the results depend on the processing

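Of 137 values under alternative settings, 104 stayed, 24 moved and 9 turned sign. Staying meant lying within the spread (or, for counts, 1.5 times) of the reported value. Of 54 values with a pool left out, 51 stayed, 2 moved and 1 turned sign. For levels and differences, which are means over the pools, this tally cannot show stability. Leaving out a pool shifts such a mean by less than its spread, so only a sign could change. The values that moved were counts past the fold of 2, at 8 without pool 1 and 2 without pool 2. The member median minus that of all protein-coding genes ranged between 1.74 and 2.24 over other settings and between 1.80 and 2.34 with a pool left out. Complexes I and V stayed above II, III and IV under each setting run.

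Without members that overlap another gene, complex II had a median of 2.18 (its SDHA and SDHC genes leave) and complex IV 5.60, and the differences were 0.24 for V minus I, 4.52 for V minus II, 4.28 for I minus II, 0.86 for I minus IV, 1.65 for I minus III, -3.42 for II minus IV and -2.63 for II minus III. With genes of a mean of 1 FPKM or more alone, complex II had 5.29 and complex III 5.47, and the differences were 0.76 for V minus III, 1.41 for I minus IV, 0.93 for I minus III, -0.18 for II minus III and -0.48 for IV minus III. Without lower copies, complexes II, III and IV had 5.61, 5.47 and 5.22, and the differences were 0.86 for V minus III, 0.79 for I minus II, 1.18 for I minus IV, 0.93 for I minus III and -0.25 for IV minus III. With the 4 matches set apart put back, V minus I was 0.043 and I minus IV 1.53. With a pseudocount of 0.1, complex II had 5.06. With a pool left out, V minus I ranged between -0.34 and 0.037. The cause of these changes was not tested beyond the genes that each setting removes or adds.

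The count past the fold of 2 ranged between 2 (without pool 2) and 27 (without pool 3) with a pool left out, with 8 without pool 1. At an exonic length of 1000 bases or more it was 2, where 15 members were tested, and the shift of pool 2 was -0.26. Libraries scaled to the same median gave 24, against 9.87% of all genes. Values rescaled to a fixed sum gave 6, against 46.8%, and shifts of -0.077 in pool 1 and 0.058 in pool 2, where the sum follows 1 miRNA gene. No circRNA of a member was above 0 in all 3 libraries (0). No paired analysis was possible because the design has 1 group and no test between groups in which the pool number could be a block; differences between complexes were taken within each pool. Depth limits the lowest copies, of which 3 rest on 3 fragments or fewer in a pool.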
